A study of Lactuca sativa var. capitata with 10 samples.

Results

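PR1, PR2, FLS2a and PAMP-induced protein A70 are 4 defense related lettuce genes for which the study designed or adopted RT-qPCR primers, and they were chosen here by the locus tags given with those primers. All 4 were found among the 38293 genes of the root count table, and all 4 passed the filter on low counts that left 21936 genes to be tested. Wild-type butterhead lettuce (L. sativa var. capitata 'Alexandria') was raised in sowing soil and transplanted to potting soil alone (PS, the control, 0 g chitin per L) or to potting soil mixed with 2 g of crab chitin per L (PS+CH). Roots were collected at 72 hours post-transplanting (hpt), with 5 pools per treatment and 5 randomly selected plants per pool. A pool averages over its plants, so that a few strongly expressing plants and a weak expression in all of them cannot be told apart. Light, temperature and humidity of the greenhouse followed the weather.

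Chitin is a polymer of fungal cell walls and arthropod shells, and plants read its fragments as a sign of a microbe. In Arabidopsis, chitin is perceived by LysM receptor kinases, whereas FLS2, a receptor kinase with leucine-rich repeats, perceives bacterial flagellin. Both kinds of receptor start pattern-triggered immunity, in which genes for antimicrobial proteins are induced. PR1 is a small secreted protein whose transcript is widely used as a marker of salicylic acid signalling, and PR2 is a beta-glucanase that cuts glucans of fungal cell walls. A70 was named in Arabidopsis for its induction by microbial patterns.

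The primers are shown because the 4 genes were chosen through them: the study lists each pair beside the gene name and the locus tag. Those of PR1, PR2 and FLS2a were adopted from earlier work. Each is written 5' to 3', with the 5 bases at its 3' end, where extension starts, in capitals.
PR1 (LSAT_5X111580) forward: tcgccacaagactttgtTAATG
PR1 (LSAT_5X111580) reverse: gaggcaagattttcaccATAGG
PR2 (LSAT_3X7981) forward: ttgagtggatccaacatTGAAG
PR2 (LSAT_3X7981) reverse: tcatggatattggtcaaAGCAG
FLS2a (LSAT_4X152881) forward: attccggcgtctattttCTGTA
FLS2a (LSAT_4X152881) reverse: attagtcagccacaaagGGAAA
A70 (LSAT_8X87760) forward: aaaatgtccgtgctcCGTCT
A70 (LSAT_8X87760) reverse: ccgagttgagcaggtGAGTT
The primers for PR1, PR2 and FLS2a were 22 bases long and those for A70 were 20 bases long. The sequencing reads counted below cover whole transcripts and did not depend on these primers. By RT-qPCR, the study analyzed only the targets expressed in all root samples and dropped the others for low starting amounts. It reported no difference between samples for any analyzed target (Kruskal-Wallis test). Most of them were, without significance, slightly higher with chitin in roots at the time point used here. Its text does not say whether PR1, PR2, FLS2a or A70 was among the targets analyzed.

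The libraries held between 17624520 and 18545790 counted reads. Expression is given in CPM, the usual abundance unit that divides a count by the library total, here after correction of the totals by TMM factors, at 1.01 to 1.08 for the PS libraries and 0.949 to 0.986 for the PS+CH libraries. CPM are not corrected for transcript length, which the count table does not hold, so that expression levels of different genes cannot be ranked by them. A count of 3 in a library corresponded to 0.157 to 0.173 CPM, and lower values were not told apart from 0; this floor covers counting error only. Treatments were compared by the quasi-likelihood (QL) test of edgeR, and p-values were adjusted over the 21936 genes by the method of Benjamini and Hochberg (BH). Genes with an adjusted p-value under 0.05 were called, and called genes were counted as DEGs where the log2-fold change was also 1 or more, or -1 or less. The 3 root markers (the aquaporin TIP1-1 and the peroxidases Perox11 and Perox12) all had counts in every pool and summed to 263 to 593 CPM in PS and 91.6 to 160 CPM in PS+CH, with the sum of every PS+CH pool below that of every PS pool. Within this list the peroxidases were lower and TIP1-1 was higher in PS+CH, and Perox12 held most of the summed CPM. Of the 7 leaf markers, all genes of photosynthesis, 6 or 7 had counts in each pool. They summed to 2.29 to 12.7 CPM in PS and 2.90 to 49.6 CPM in PS+CH, highest in PS+CH replicate 2. From these same libraries, the study reported the peroxidases as lower and the photosynthesis genes as higher with chitin. The direction of either sum between the treatments is therefore no independent sign of tissue content.

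The 4 genes did not respond to chitin as 1 group. PR2 was lower expressed and A70 was higher expressed in PS+CH, whereas neither PR1 nor FLS2a was called. Called genes were 18.5% of all genes tested, 11.0% being lower and 7.55% higher in PS+CH. Beside this background, 2 of the 4 genes were called, 1 in each direction. The background itself moved with single pools and with the scaling. Without 1 pool it was 1502 to 4109 called genes, against 4065 with all pools, the lowest number being that without PS+CH replicate 1. Under scaling by totals alone, 819 genes were called higher and 3420 lower, against 1656 and 2409 under TMM. None of the 4 was a DEG, a class that held 3.32% of all genes tested, 2.93% lower and 0.387% higher in PS+CH. In bulk roots, fewer cells of a type and less RNA per cell cannot be told apart.

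PR1 (LSAT_5X111580) was at the edge of detection in roots. In PS replicates 1 to 5 it had 0, 3, 54, 58 and 1 counts, which are 0, 0.163, 2.83, 3.15 and 0.0545 CPM. With chitin, replicates 1 to 5 held 26, 0, 60, 0 and 13 counts, which are 1.48, 0, 3.46, 0 and 0.736 CPM. Each treatment therefore held pools with no detectable PR1 and pools with over 50 counts, and the treatments overlapped over nearly their whole range. A count of 0 allows up to 3 counts, or 0.167 CPM in PS replicate 1 and 0.167 and 0.171 CPM in PS+CH replicates 2 and 4.

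PR1 averaged 1.24 ± 1.60 CPM in PS and 1.14 ± 1.44 CPM in PS+CH (SD, n = 5 each). Its log2-fold change of -0.14 had a standard error of 1.16 and an adjusted p of 0.943 (edgeR QL, BH). The mean of log2 CPM differed by 0.06 in the other direction (p = 0.952, exact two-sided permutation). With either measure the difference was far smaller than the spread between pools, and no direction can be given. The 95% interval of the fold ran from 0.157 to 5.26, so that a several-fold change of PR1 in either direction lay within it.

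PR1 was among the most variable genes of the root libraries. The SD of its log2 CPM within treatments was 2.30, a value that 33 of the 21936 genes tested exceeded, while the median gene had 0.214. Counting alone would give its mean count of 21.5 a coefficient of variation of 21.6%; the coefficients observed were 129% in PS and 127% in PS+CH. The biological coefficient of variation that edgeR estimated for PR1 was 153%, against 33.6% on the trend for genes of its abundance. The 5 pools at or under 3 counts comprised 3 PS and 2 PS+CH pools.

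PR2 (LSAT_3X7981) was expressed in every pool and was lower in PS+CH. In PS replicates 1 to 5 it had 46.0, 47.0, 46.6, 58.2 and 64.8 CPM, from 826 to 1189 counts. With chitin, replicates 1 to 5 had 31.4, 27.2, 34.1, 32.9 and 42.1 CPM, from 488 to 744 counts. All 5 PS+CH pools lay below all 5 PS pools, which was also found for 7.02% of all genes tested. PS+CH replicate 5 came closest to the control, and PS replicates 4 and 5 stood above the other PS pools.

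PR2 averaged 52.5 ± 8.53 CPM in PS and 33.5 ± 5.46 CPM in PS+CH (SD, n = 5 each), a decrease of the mean to 0.639 of the control. The change was -0.65 on the log2 scale with a standard error of 0.13 (edgeR QL, BH-adjusted p = 0.0121), and with a 95% interval from -0.93 to -0.36 that did not reach the DEG threshold of -1. Exact permutation of log2 CPM over the pools (two-sided) gave p = 0.00794, which is the lowest value possible with 5 pools per treatment. The call was kept in each of the 10 fits that left out 1 pool, with log2-fold changes between -0.74 and -0.57. The size of the change was ordinary among lower expressed genes. Of the 2409 genes called lower, 1305 had a larger decrease. The sum of the root markers was also lower in every PS+CH pool, through peroxidases that the study itself reported as lower with chitin. The remaining root marker, TIP1-1, was higher in PS+CH. The part of these markers in the decrease of PR2 was not tested.

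**Figure D1:**
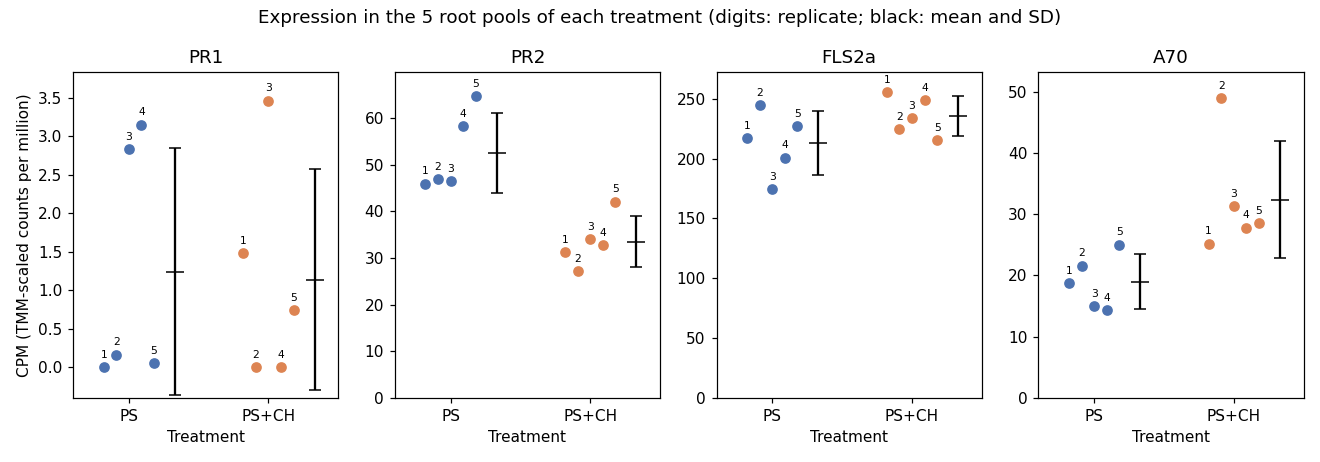
CPM (TMM-scaled, linear axes that differ between panels) of PR1, PR2, FLS2a and A70 in the 5 PS and 5 PS+CH pools. Points are pools labelled with their replicate number, and black marks are the mean and SD of each treatment (below 0 for PR1 only because the SD exceeds the mean); PR2 separates the treatments downwards at 42.1 against 46.0 CPM, A70 nearly touches at 25.1 and 25.2 CPM, and PR1 runs from 0 to 3.15 CPM in PS and from 0 to 3.46 CPM in PS+CH.

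FLS2a (LSAT_4X152881), the flagellin receptor gene, was steadily expressed. PS replicates 1 to 5 had 217, 245, 174, 201 and 227 CPM, and PS+CH replicates 1 to 5 had 256, 225, 234, 249 and 215 CPM. With 3324 to 4504 counts per pool, counting error contributed a coefficient of variation of 1.57%. The treatments overlapped: PS+CH replicates 1 and 4 exceeded every PS pool, and the lowest value of all was that of PS replicate 3.

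FLS2a averaged 213 ± 26.7 CPM in PS and 236 ± 16.6 CPM in PS+CH (SD, n = 5 each). The log2-fold change of 0.15 (standard error 0.10) had an adjusted p of 0.280 (edgeR QL, BH), and exact permutation over the pools (two-sided) gave p = 0.143. The 95% interval of the fold was 0.959 to 1.28. A change of FLS2a by more than this was outside the interval, whereas a small increase was not told apart from none. The size of the change depended on the scaling and on 1 pool, since the log2-fold change was 0.06 when libraries were scaled by their totals alone and 0.07 without PS replicate 3.

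A70 (LSAT_8X87760) was higher in PS+CH. PS replicates 1 to 5 had 18.8, 21.6, 15.0, 14.3 and 25.1 CPM, from 264 to 460 counts. PS+CH replicates 1 to 5 had 25.2, 49.0, 31.3, 27.8 and 28.5 CPM, from 442 to 878 counts. PS+CH replicate 2 stood far above the other PS+CH pools. All 5 PS+CH pools lay above all 5 PS pools, as for 7.04% of all genes tested, but PS replicate 5 and PS+CH replicate 1 differed by little. When libraries were scaled by their totals alone, these 2 pools changed order, at 25.3 and 24.2 CPM, and 4 of the 5 PS+CH pools exceeded all PS pools.

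A70 averaged 19.0 ± 4.51 CPM in PS and 32.4 ± 9.54 CPM in PS+CH (SD, n = 5 each), or 1.71 times the control. On the log2 scale this was 0.77 with a standard error of 0.20 (edgeR QL, BH-adjusted p = 0.0254), and with a 95% interval from 0.34 to 1.21. Exact permutation over the pools (two-sided) gave p = 0.00794 under TMM and p = 0.0159 under scaling by totals alone. Of the 1656 genes called higher, 208 had a larger increase than A70. The study took some of its RT-qPCR targets from these libraries and does not mark the A70 primers as adopted from earlier work, so that A70 may have been picked for its response here. Without PS+CH replicate 2 the log2-fold change was 0.58 (adjusted p = 0.0448, edgeR QL, BH), and without PS replicate 3, the second lowest PS pool, it was 0.69 with the call lost (adjusted p = 0.0590, edgeR QL, BH). PS+CH replicate 2 also had the highest sum of leaf markers, 49.6 CPM, against 2.90 to 16.4 CPM in the other PS+CH pools. The PS pools did not share this pattern. PS replicate 4 had the highest leaf sum of PS, 12.7 CPM, and the lowest A70, 14.3 CPM. PS replicate 5 had the lowest leaf sum, 2.29 CPM, and the highest A70 of PS, 25.1 CPM. The part of leaf RNA in the A70 value of PS+CH replicate 2 was not tested.

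PR2 and A70 moved in opposite directions in the same libraries, which can be read without any scaling from the ratio of their counts within a pool. This ratio was looked at after the values of both genes had been seen. A70 counts per PR2 count were 0.409, 0.460, 0.321, 0.246 and 0.387 in PS replicates 1 to 5. In PS+CH replicates 1 to 5 they were 0.804, 1.80, 0.920, 0.846 and 0.676, all above the PS range. The mean of the log2 ratio was -1.49 ± 0.35 (SD, n = 5) in PS and -0.08 ± 0.54 (SD, n = 5) in PS+CH, a difference of 1.41 that corresponds to a 2.66-fold higher ratio in PS+CH. Since both genes already separated the treatments, in opposite directions, the separation of their ratio adds no further evidence. No p-value is therefore given for it.

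**Figure D2:**
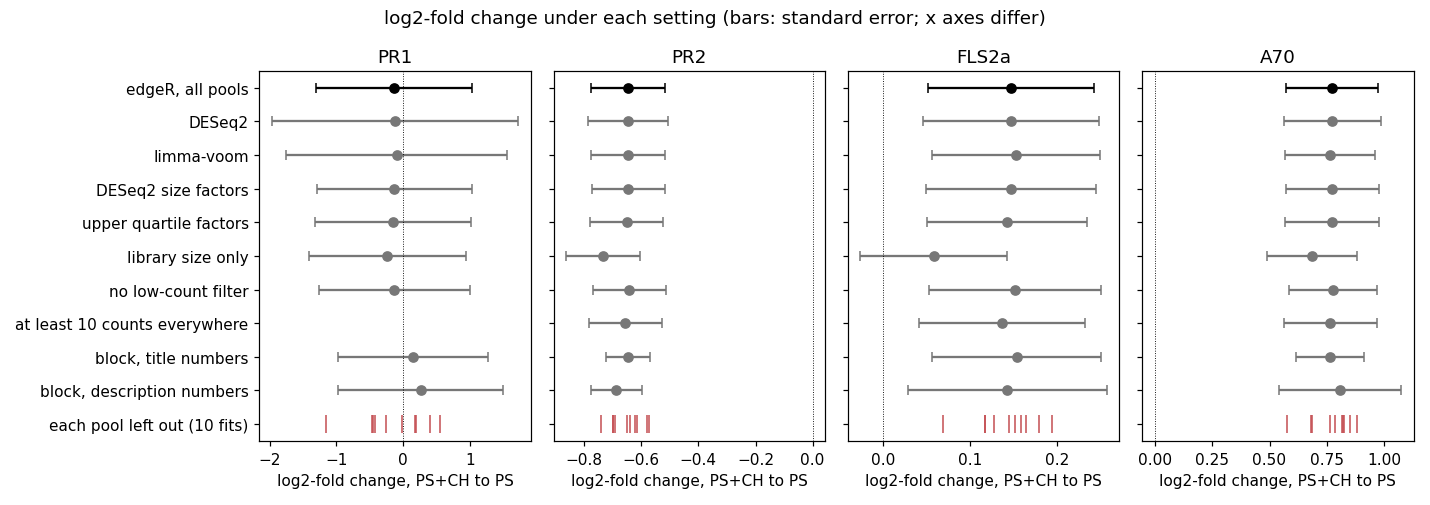
log2-fold change of PS+CH to PS (x axes differ between panels; positive values are higher in PS+CH) for each of the 4 genes under the reported edgeR fit, 9 other settings and 10 fits that each left out 1 pool. Points carry standard errors and red ticks are the fits without 1 pool; PR2 stays below 0 and A70 above 0 throughout, FLS2a stays slightly above 0, and PR1 falls on both sides of 0 (no point at the setting of at least 10 counts in every library, which excludes it).

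Among the other members, pool-to-pool variation was moderate. The SD of log2 CPM within treatments was 0.23 for PR2, 0.15 for FLS2a and 0.36 for A70, exceeding the SD of 53.6% of the genes tested for PR2, 27.3% for FLS2a and 77.1% for A70. The coefficient of variation of PR2 was 16.2% in PS and 16.3% in PS+CH. That of FLS2a was 12.5% in PS and 7.03% in PS+CH, and that of A70 was 23.8% and 29.5%. For these 3 genes the highest pool of a treatment exceeded the lowest by 1.19 times (FLS2a in PS+CH) to 1.94 times (A70 in PS+CH). In units of the spread within treatments, the difference between the treatments was -2.85 SD for PR2, 2.12 SD for A70, 1.02 SD for FLS2a and 0.03 SD for PR1.

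**Figure D3:**
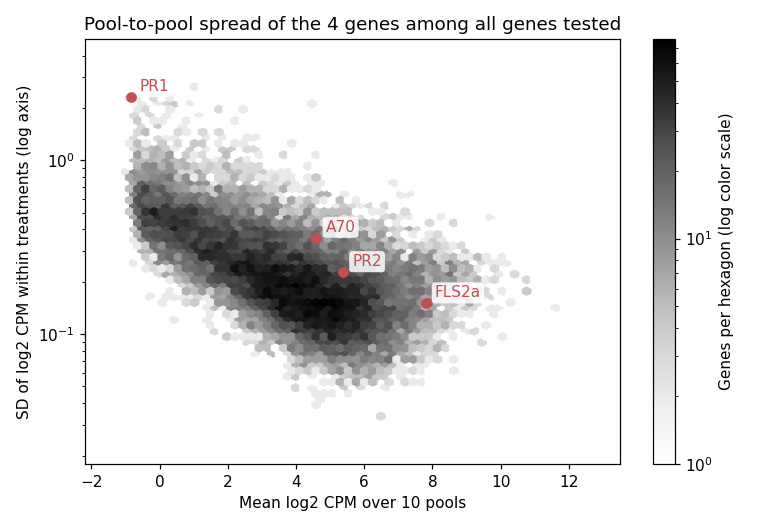
SD of log2 CPM within treatments (log axis) against mean log2 CPM over the 10 pools, with all 21936 genes tested as grey hexagons (darker with more genes, log color scale) and the 4 genes in red. PR1, with an SD of 2.30, lies at the upper edge of the cloud at its low abundance, while PR2, FLS2a and A70 lie within it at 0.15 to 0.36.

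Whether the genes rose and fell together from pool to pool was examined with the treatment means subtracted, over the 10 pools and all 6 pairs of genes. None of the 6 correlations passed an exact permutation test over all pairings within treatments (two-sided, Benjamini-Hochberg adjusted over the 6 pairs). The strongest was that of PR1 and A70, with a Pearson's r of -0.66 (p = 0.0576, adjusted p = 0.346, exact permutation) and a Spearman's rho of -0.58 (p = 0.0914, adjusted p = 0.548, exact permutation). Without the 2 pools farthest from the median of PR1, r was -0.68. With 5 of the 10 pools at or under 3 counts, the values for PR1 rest largely on counts near the floor. In PS, replicates 3 and 4 had the most PR1 and the least A70, and in PS+CH, replicate 2 had the most A70 and no PR1 counts. PS+CH replicate 4 went against this, with no PR1 counts and the second lowest A70 of its treatment, 27.8 CPM, and without it r was -0.82.

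PR1 and PR2, both read as markers of defense, had an r of 0.22 and a rho of 0.38 (p = 0.559 and 0.324, adjusted p = 0.777 and 0.563, exact permutation), and an r of 0.09 without the 2 farthest pools. PR1 and FLS2a had an r of -0.47 and a rho of -0.32 (p = 0.203 and 0.368, adjusted p = 0.610 and 0.563, exact permutation), and an r of -0.49 without the 2 farthest pools. These 2 pairs therefore give no sign of joint variation that 10 pools could resolve.

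FLS2a and A70 had an r of 0.30 and a rho of 0.28 (p = 0.421 and 0.469, adjusted p = 0.777 and 0.563, exact permutation), and an r of 0.31 without the 2 farthest pools. PR2 and FLS2a had an r of -0.03 and a rho of -0.07 (p = 0.941 and 0.872, adjusted p = 0.941 and 0.872, exact permutation), which became -0.42 without the 2 farthest pools. PR2 and A70 had an r of -0.17 and a rho of -0.27 (p = 0.647 and 0.466, adjusted p = 0.777 and 0.563, exact permutation), and an r of -0.25 without the 2 farthest pools. For PR2 and A70, the values as measured gave an r of -0.71 (p = 0.0208, adjusted p = 0.125, permutation test with 100000 resamples) and a rho of -0.73 (p = 0.0199). The values as measured include the difference between the treatments. Within treatments the relation was weaker and not resolved, with an r from -0.60 to 0.29 when single pools were left out.

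**Figure D4:**
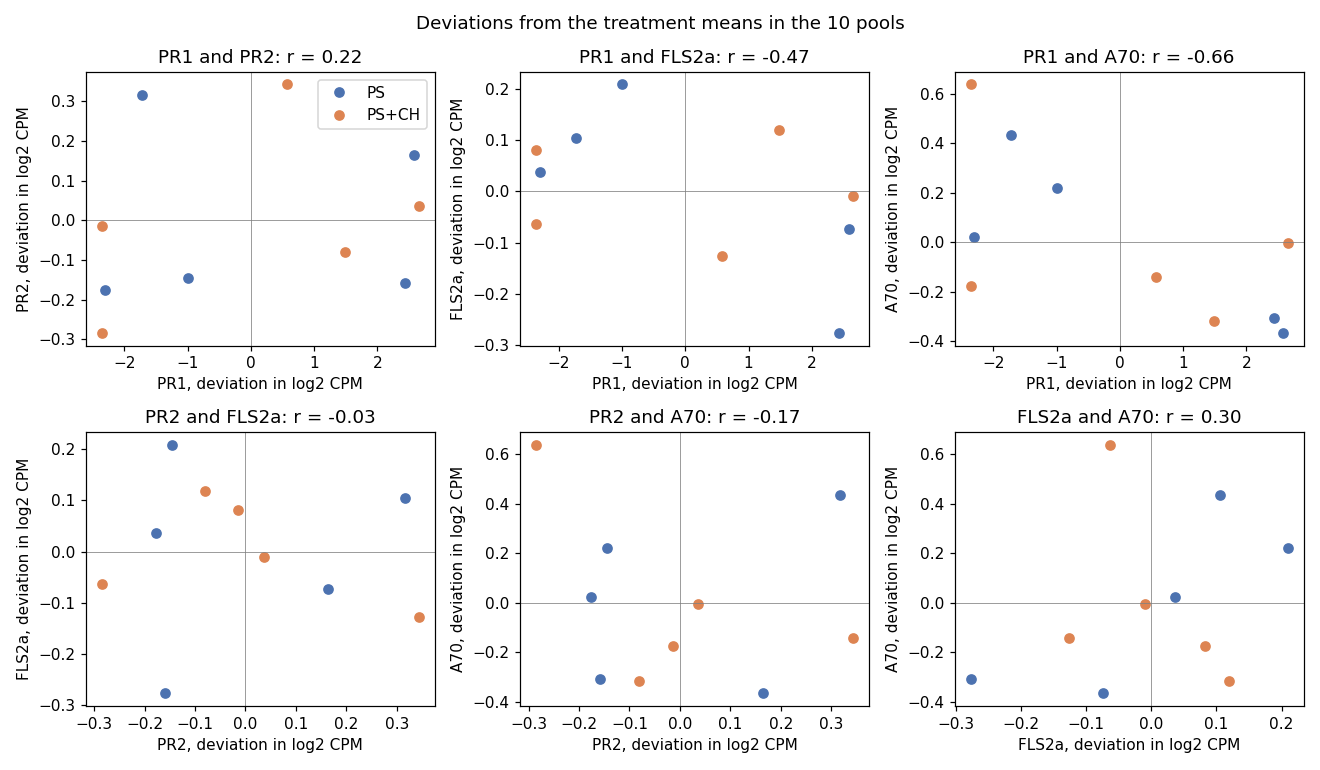
Deviation of log2 CPM from the treatment mean for each of the 6 pairs of genes, with 1 point per pool (blue PS, orange PS+CH). Pearson's r over the 10 pools is given above each panel and runs from -0.66 for PR1 and A70 to 0.30 for FLS2a and A70, with PR1 split into pools near the floor and pools above it.

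The genes whose pool-to-pool pattern was most like each of the 4 were taken by Pearson's r of the same deviations over the 10 pools, as a description without a test. The count table does not pair its locus tags with names. The closest to PR1 were LSAT_9X112100 and LSAT_9X51940, both with an r of 0.96. The closest to PR2 were LSAT_0X15441 and LSAT_5X43280, both with an r of 0.92. FLS2a was followed by LSAT_3X37940 and LSAT_6X73421, both with an r of 0.97, and A70 by LSAT_0X38100 and LSAT_5X98761, both with an r of 0.94. Some of these genes were low, where counting error weighs more. LSAT_0X38100 had 0.326 to 1.28 CPM and the 2 genes closest to PR2 had 1.34 to 3.74 CPM, whereas the others had 7.20 to 61.3 CPM. An r of at least 0.9 was shared with 10 genes by PR1, with 7 by PR2, with 45 by FLS2a and with 7 by A70, where the median gene tested shared it with 20. An r of -0.9 or less was shared with 2 genes by PR1, with 6 by PR2, with 19 by FLS2a and with 24 by A70. Among the named genes with primers, the highest r was 0.76 for PR1 with the beta-glucosidase gluc18 and 0.49 for PR2 with Perox11. It was 0.62 for FLS2a with the auxin-responsive ARP and 0.64 for A70 with the flavonoid gene F3'H, all over the same 10 libraries. F3'H ranged from 1.37 to 57.7 CPM among the PS+CH pools, and how far single pools carry its r with A70 was not tested. The lowest r was -0.65 for PR1 with the auxin-responsive SAUR78 and -0.41 for PR2 with the patellin PATL3. With Perox12 it was -0.66 for FLS2a and -0.71 for A70, larger in size than their highest r.

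Beside these genes, 27 others have primers and a locus tag, and 16 of them were tested. In PS+CH 12 were called higher and 3 lower, with a median log2-fold change of 0.88 beside 0.00499 over all genes tested. The study picked many of them as responders in these libraries, so that their number is not independent evidence of a response. Over all genes tested, 7.55% were called higher and 11.0% lower. The pools of both treatments were fully separated for 10 genes that were higher and 2 that were lower in PS+CH, beside 7.04% and 7.02% of all genes tested. Of the defense and stress signalling genes, 2 of the 4 were tested and both were higher in PS+CH.

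CLP30 (LSAT_2X84220) had 29.7 ± 4.07 CPM in PS and 51.3 ± 6.42 CPM in PS+CH (SD, n = 5 each), a log2-fold change of 0.79. ERF062 (LSAT_6X60300), a transcription factor of the ethylene-responsive family, had 15.1 ± 4.66 CPM in PS and 32.0 ± 6.48 CPM in PS+CH (SD, n = 5 each), a log2-fold change of 1.09. The adjusted p was 0.00662 for CLP30 and 0.0107 for ERF062 (edgeR QL, BH), and for both genes all PS+CH pools exceeded all PS pools. The other 2 did not pass the filter on low counts, since too few pools held enough counts. GST (LSAT_3X87760), a glutathione S-transferase, had 0.0855 ± 0.0795 CPM in PS and 2.52 ± 3.38 CPM in PS+CH (SD, n = 5 each). SABP (LSAT_3X91921), which is known in tobacco for releasing salicylic acid from its methyl ester, had 0.0758 ± 0.113 CPM in PS and 0.654 ± 0.787 CPM in PS+CH (SD, n = 5 each). The PS means of both lay under the floor of 3 counts per library. The highest count in a pool was 147 for GST and 35 for SABP. For each, 3 of the 5 PS+CH pools exceeded all PS pools, while the lowest PS+CH value was 0 CPM.

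In the remaining groups, all 7 hormone and growth genes were higher in PS+CH. Of the 10 flavonoid and phenylpropanoid genes 4 were tested, with 1 called higher and 2 lower, and of the 6 genes of transport and other metabolism 3 were tested, with 2 higher and 1 lower. The largest increases among all called genes of the list were those of the chalcone isomerase-like CHILs (LSAT_8X11480) and of ERF062, with log2-fold changes of 2.88 and 1.09, although CHILs ranged from 0.114 to 11.0 CPM among the PS+CH pools and overlapped PS. The largest decreases were those of Perox11 (LSAT_8X37660) and the beta-glucosidase gluc18 (LSAT_9X97401), with log2-fold changes of -1.96 and -1.77. A70 lay within the range of the called hormone and growth genes, 0.65 to 0.99, whereas PR2 was lower expressed by less than each of the 3 genes called lower.

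**Figure D5:**
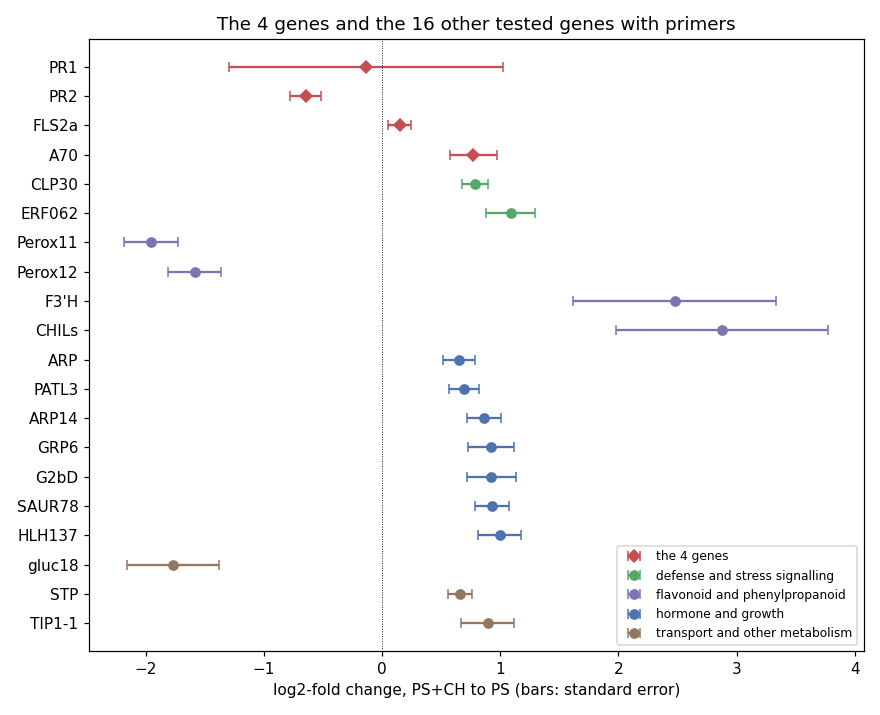
log2-fold change of PS+CH to PS with its standard error for PR1, PR2, FLS2a and A70 (red diamonds) and for the 16 other tested genes with primers (circles, colored by role). A70 at 0.77 sits among the hormone and growth genes at 0.65 to 0.99, PR2 at -0.65 is nearer to 0 than Perox11, Perox12 and gluc18, and the bar of PR1 spans 0.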

How the data were processed

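The authors checked reads with FastQC 0.11.9, aligned them with STAR 2.7.10 to version 7 of the L. sativa cv. 'Salinas' genome and counted them with featureCounts 2.0.1. The deposited values are raw read counts, neither normalized nor filtered, of 10 strand-specific mRNA libraries. How reads matching several genes were counted is not given in the sources used here, so that the counts of PR1, PR2 and FLS2a, members of gene families, may include or lack reads shared with paralogs. Treatments and replicate numbers came from the sample titles. All 10 columns were used.

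The analysis used edgeR 4.0.16 under R 4.3.3. Genes were kept by filterByExpr (minimum count of 10), scaled by TMM and compared by glmQLFit and glmQLFTest over all 10 libraries without a block; standard errors are the log2-fold change divided by the square root of the F statistic. The study itself used DESeq2, run here as an alternative (DESeq2 1.42.0), as was limma-voom (limma 3.58.1). Single genes were also compared by exact permutation over the 252 arrangements of pools, and log2 CPM had a prior count of 2 (Python 3.11.15, scipy 1.17.1). On counts simulated for 21936 genes of this comparison, of which 21751 passed the filter, edgeR called 76 of 97 tested genes changed by a log2-fold change of 1 in size, 94 of 96 changed by 2, and 7 unchanged genes. The simulation changed 200 genes only and drew each gene independently. It does not cover changes as small as those of PR2 and A70, nor a share of called genes as large as that found here.

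Genes were named by rule: the 4 genes, the 2 most like each, the 4 defense and stress signalling genes with primers, and the 2 largest increases and 2 largest decreases among the called genes with primers. Members and lists were chosen with earlier results of these data known. The leaf markers were assigned to locus tags through names, changes and chromosomes given by the study, and not through the count table. No table used here pairs the locus tags with coordinates or products, so that neither positions nor other defense genes are given. Pools consisted of randomly selected plants of a treatment. CPM intervals and floors cover counting error only.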

Additional observations from a re-analysis of the deposited data

Results flagged for a closer look

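A70 had 49.0 CPM in PS+CH replicate 2, set apart from the next highest PS+CH pool, at 31.3 CPM, by 0.742 of the range of the treatment, above Dixon's 95% critical value for 5 samples. By chance about 1 in 20 groups is set apart in this way, and 8 groups (4 genes in 2 treatments) were examined. Without this pool, A70 was still called, at 0.58 on the log2 scale with a standard error of 0.16 (edgeR QL, BH-adjusted p = 0.0448).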

How the results depend on the processing

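The alternatives for the A70 to PR2 ratio, the spreads, the DEG counts and the other primer genes were chosen after seeing the data. Across the 10 fits without 1 pool, log2-fold changes ran from -1.16 to 0.55 for PR1, from -0.74 to -0.57 for PR2, from 0.07 to 0.19 for FLS2a and from 0.58 to 0.88 for A70; A70 lost its call without PS replicate 3 (0.69, adjusted p = 0.0590), and PR2 kept it in all 10 fits. PR1 changed sign without PS replicate 3 (0.41), PS replicate 4 (0.55), PS+CH replicate 2 (0.19) and PS+CH replicate 4 (0.19), and was excluded when 10 counts were required in every library. These fits called 1502 to 4109 genes, where all pools gave 4065, and 375 to 887 DEGs, where all pools gave 728 (calls: 2557 without PS replicate 3 and 1502, 2176, 2154 and 2201 without PS+CH replicates 1, 2, 4 and 5; DEGs: 375 without PS replicate 3 and 461 without PS+CH replicate 1). They called 13 to 15 of the other primer genes. DESeq2, limma-voom, other scalings and other filters changed no call of the 4 genes. Under scaling by totals alone, 819 genes were called higher and 3420 lower, against 1656 and 2409 with TMM.

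Titles give both treatments the replicate numbers 1 to 5. Deviations of same-numbered pools correlated at 0.48, 0.45, 0.35, -0.01 and 0.01, with a mean of 0.26, and 5 of 10 pools correlated best with their own number. These values do not settle whether the title numbers pair the pools. The reported fit has no block, as pools were of randomly selected plants. With the title numbers as a block, PR1 turned to 0.15, PR2 was -0.65, FLS2a 0.15 and A70 0.76, with no call changed among the 4, and 6199 genes were called. Deviations of pools that share a description number correlated at -0.40, 0.02, -0.17 and 0.01. With the 4 description numbers that both treatments share as the block (8 libraries, and so fewer degrees of freedom), 0 genes were called by edgeR QL with BH adjustment, 0 of them DEGs and 0 among the other primer genes, while 5696 had an unadjusted p-value under 0.05. PR1 was then 0.26, PR2 -0.69 (adjusted p = 0.0638) and A70 0.81 (adjusted p = 0.128).

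With each pool left out, Pearson's r ran from 0.02 to 0.48 for PR1 and PR2, from -0.60 to -0.27 for PR1 and FLS2a, from -0.82 to -0.58 for PR1 and A70, from -0.35 to 0.23 for PR2 and FLS2a, from -0.60 to 0.29 for PR2 and A70 and from 0.08 to 0.60 for FLS2a and A70. None passed. The sign turned for PR2 and FLS2a in 4 of the 10 fits and for PR2 and A70 without PS+CH replicate 2 (0.29). Counting error was smaller than the observed spread for all 4 genes, PR1 included.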
